A study of Drosophila melanogaster with 4 samples.

Results

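Nuclear pores are the gated channels through the nuclear envelope, and the genes described here encode their subunits and the soluble carriers that move cargo through them. The 33 genes comprise 25 nucleoporin genes, the small GTPase gene Ran and 7 nuclear transport receptor genes. They were chosen by name, by matching the annotation ID that each array probe carries to the listed gene, out of 9739 genes tested on the arrays. All 33 had a probe whose signal stood well above background in both genotypes on all 4 arrays, so no member was lost to the filter on dim probes. The list was proposed with the ratios of these arrays already known, and every ratio below comes from that same contrast. The ratios and calls of the 33 genes are therefore a description, and nothing here tests them independently.

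A nuclear pore is built from scaffold rings anchored in the envelope, with a central channel lined by flexible proteins rich in phenylalanine and glycine repeats. Importins and exportins carry cargo through this channel, and Ran, loaded with GTP in the nucleus and GDP in the cytoplasm, sets the direction. In the fly egg the mother deposits a large store of nucleoporins, part of it in stacked membranes called annulate lamellae, from which pores are supplied while embryonic nuclei multiply.

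The study compared total RNA of whole Drosophila melanogaster embryos, collected over 2 h of egg laying and aged for 6 h at 25 degrees C, which the labels place at 6 to 8 h of development. One group was null for the 8-miR cluster, a run of microRNA genes (the null below), and the other was w1118, a white-eyed laboratory strain given as the wild type and as the genetic background of both groups. The labels conflict on the mutant: titles and sources name the 8-miR cluster, a genotype field names miR-8, and a treatment field speaks of flies homozygous for ectopic mir-3, so the genotype rests on titles and sources. Each 2-colour Agilent array carried 1 null and 1 w1118 extract. Of 4 arrays, 3 held replicates 1, 2 and 3 with the null in Cy3, and the 4th held replicate 1 again with dyes exchanged. The 2 arrays of replicate 1 were on slide 1, and replicates 2 and 3 on slide 2, so replicates 2 and 3 were measured in 1 dye orientation only. The design text calls the extracts independently isolated biological replicates. Ratios below are log2 of null over w1118 with SD over 3 replicates (replicate 1 being the mean of its 2 arrays), and their sign rests on the dyes in the labels. A gene was called higher or lower in the null where limma's fit across all 9739 genes gave a Benjamini-Hochberg adjusted p under 0.05.

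On the whole arrays, 54.5% to 64.0% of probes were well above background in a given genotype. Across 19751 probes, which are not independent replicates, Pearson's r was 0.941 to 0.958 between unswapped arrays and 0.824 to 0.883 between these and the dye swap. All 8 embryo markers listed (eve, wg, en, Ubx, twi, pros, repo and bap) were above background in both genotypes on all arrays. Ubx (0.19) was called higher and bap (-0.27) and en (-0.15) lower, against 28.1% and 26.6% of all genes, with a list median of -0.06. A further bap probe gave 0.02, and 2 further probes of wg, itself not called, gave -0.33 and 1.56. Of 11 follicle cell, chorion and yolk genes, transcribed in the mother, 8 were measured, while Cp16, Cp19 and Cp38 were too dim to be tested. Their summed channel signal was 1064 to 1108 in the null and 2043 to 2137 in w1118, but the 8 genes were not alike. Of them, 5 were called lower and 1, Cp18 (0.20), higher, against 26.6% and 28.1% of all genes. Ratios ran from -2.05 (Vm26Aa) to 0.20, and only 4 genes were above background in both genotypes on all arrays. For 7 maternally loaded RNAs (bcd, osk, nanos, gcl, pgc, Nin and smg) the sum was 11766 to 12809 in the null and 13085 to 13682 in w1118. Its genes went both ways: bcd (0.85), smg (0.28) and pgc (0.19) were called higher and osk (-0.65) and gcl (-0.56) lower, with a list median of 0.00. For pgc a further probe gave -0.50, opposite in sign. The part of such differences in embryo material in the ratios below was not tested. In whole embryos, fewer cells that express a gene and less RNA of it per cell cannot be told apart.

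Of the 33 genes, 19 were called higher in the null and 4 lower, while 10 were not called. Among all genes tested, 28.1% were called higher and 26.6% lower, 54.7% in all. The members' median ratio was 0.18, against 0.01 over all genes and 0.02 over the 4702 genes whose mean signal lay in the members' range. By role, 17 of 25 nucleoporin genes were called higher and 1 lower, with a median of 0.23. Of the 8 genes for Ran and the receptors, 2 were called higher and 3 lower, with a median of 0.00. The ratio was under 1.2-fold either way in 19 of 33 genes. A ratio of at least 1.2-fold was seen in 14 members (42.4%, against 33.9% of all genes), of 1.5-fold in 4 (12.1%, against 1068 of 9739 genes) and of 2-fold in 1, Nup160 (3.03% against 3.74%). The median size of the ratio, regardless of sign, was 0.23 for members, 0.17 for all genes and 0.16 for genes in the members' signal range.

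**Figure D1:**
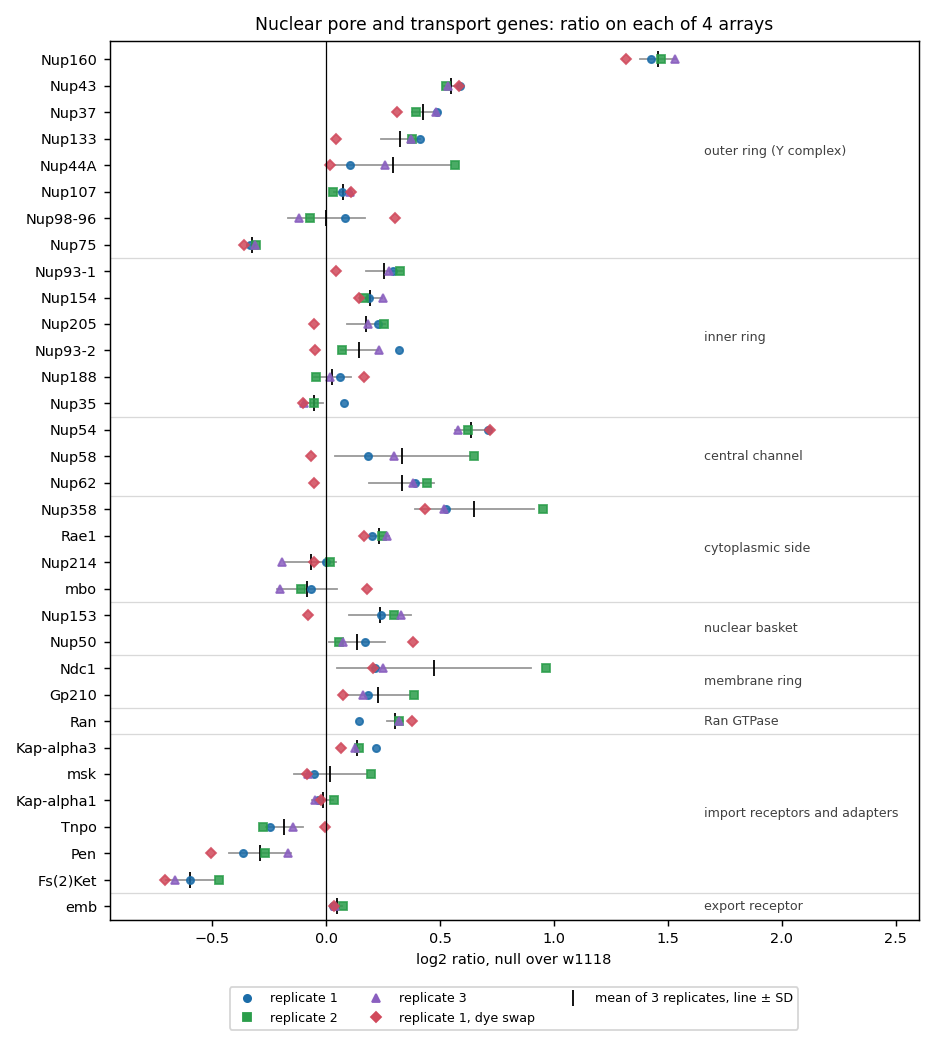
Log2 ratio of null over w1118 (horizontal axis) for the 33 nuclear pore and transport genes (rows, grouped by role) on each of 4 arrays, with the mean of 3 replicates as a black tick and a grey line of ± SD. Nup160 lies at 1.31 to 1.53 on all arrays, and the means of most other nucleoporins lie between 0 and 0.7. Nup75, Pen, Fs(2)Ket and Tnpo lie below 0 on every array, Tnpo only just so (-0.01) on the swap.

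The outer ring of the pore is made of copies of a Y-shaped assembly, the Y complex, which is laid down early when pores form. Of its 8 genes here, 5 were called higher and 1 lower, with a median of 0.31. Nup160, an arm of the Y, gave 1.42, 1.47 and 1.53 on the unswapped arrays of replicates 1, 2 and 3 and 1.31 with dyes exchanged. This was 2.74-fold higher in the null (1.46 ± 0.08, SD, n = 3), and the log2 signal was 13.1 in all 3 null extracts against 11.5 to 11.7 in w1118, with no overlap. A 2nd Nup160 probe, named for the same transcript RA and also above background on all arrays, gave only 0.11 ± 0.15 and was not called. It read 0.03, 0.16 and 0.22 on the unswapped arrays, against -0.14 on the swap, so the large value belongs to 1 of the gene's 2 probes, and the mean of both was 0.78.

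Nup43, a small repeat-propeller subunit of the Y complex, gave 0.59, 0.53 and 0.53 on the unswapped arrays, against 0.58 on the swap. Its 1.46-fold difference (0.55 ± 0.03) was among the most even of the members over arrays. Nup37, another small propeller subunit, gave 0.48, 0.39 and 0.48 with 0.31 on the swap (0.43 ± 0.05), and a 2nd probe gave 0.67 ± 0.10. Nup133, at the tip of the stalk, gave 0.41, 0.38 and 0.37 on the unswapped arrays but 0.04 on the swap (0.33 ± 0.09). Nup44A, the fly Seh1, which also serves in an amino acid sensing complex, was uneven: 0.10, 0.57 and 0.26, with 0.02 on the swap. It was called at 0.30 ± 0.25, but without replicate 2 its ratio was 0.16 and without replicate 3 it was 0.31, neither of them called. The ratio of Nup44A was 0.04 and not called when taken from processed signals, the scanner's or those of the authors' table, and its call held in 7 of 18 alternative settings.

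Nup75, the fly Nup85, went the other way within the same complex. It gave -0.33, -0.31 and -0.31, and -0.36 on the swap, 1.25-fold lower in the null (-0.32 ± 0.02). The 3 null signals (12.96 to 13.04) all lay below the 3 w1118 signals (13.28 to 13.38). Nup107, a stalk subunit, gave 0.07 ± 0.04 and was not called. CG10198, the gene whose product is cut into the channel protein Nup98 and the Y subunit Nup96, gave 0.00 ± 0.17 and was not called. It read 0.08, -0.07 and -0.12 on the unswapped arrays, against 0.30 on the swap.

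The inner ring holds the scaffold together around the channel. Of its 6 genes, 4 were called higher and none lower, and the highest ratio was 0.26. Nup93-1 gave 0.29, 0.32 and 0.27 on the unswapped arrays, against 0.04 on the swap (0.26 ± 0.08). Its paralog Nup93-2 gave 0.32, 0.07 and 0.23, and -0.05 on the swap. Nup93-2 sat at the edge of the threshold (0.15 ± 0.08): it was called among genes, but neither when all kept probes were tested together nor without any 1 of the replicates (0.10 to 0.18). Nup154, the fly Nup155, known for its role in germ cell development, gave 0.19 ± 0.05 and was above 0 on each array, but was not called without replicate 3 (0.17). Nup205, a large linker subunit, gave 0.18 ± 0.08, but -0.05 on the swap. Its call was lost without replicate 2 (0.14) or replicate 3 (0.17) and with a dye term (0.08), and its 2 further probes gave 0.13 (not called) and 0.19 (called higher). Nup188 (0.03 ± 0.08) and Nup35, which contacts the membrane (-0.06 ± 0.04), were not called.

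All 3 genes of the central channel complex, whose repeats form the permeability barrier, were called higher. Nup54 gave 0.71, 0.62 and 0.58 and, on the swap, 0.72. It was 1.56-fold higher (0.64 ± 0.07), and its null signals of 11.66 to 11.84 did not overlap the 10.94 to 11.23 of w1118. Nup62 gave 0.39, 0.44 and 0.38 on the unswapped arrays, against -0.05 on the swap (0.33 ± 0.14). Nup58 gave 0.18, 0.65 and 0.30, and -0.07 on the swap (0.33 ± 0.30). For Nup58 the ratio without replicate 2 was 0.18 and without replicate 3 it was 0.35, neither of them called. With the scanner's processed signals it was 0.17 and with a dye term 0.16, also not called, and the call of Nup58 held in 8 of 18 alternative settings.

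On the cytoplasmic face, 2 of 4 genes were called higher. Nup358, the giant docking protein for Ran and its GTPase activator, gave 0.53, 0.95 and 0.52, and 0.44 on the swap. It was 1.57-fold higher in the null (0.65 ± 0.26), with null signals of 13.55 to 13.69 above the 12.74 to 13.15 of w1118. Rae1, an mRNA export factor that binds Nup98, gave 0.23 ± 0.04, was above 0 on each array, and had a 2nd probe at 0.22 that was also called, but its call was lost without replicate 3 (0.21). Nup214 (-0.07 ± 0.11) and mbo, the fly Nup88 and partner of Nup214 in restraining Crm1 (-0.08 ± 0.13), were not called. Without replicate 1, mbo was called lower at -0.16, and on the swap array it read 0.18.

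In the nuclear basket, Nup153, which anchors the basket to the pore, was called higher at 0.24 ± 0.13 by its brightest probe. That probe read 0.24, 0.30 and 0.33 on the unswapped arrays, against -0.08 on the swap, and the 2 further probes gave 0.13 and -0.06 and were not called. Without replicate 3 its ratio was 0.19, and as the mean of its probes 0.10, neither of them called. Nup50, a cofactor that helps release import cargo, gave 0.14 ± 0.12 by its brightest probe and was not called, while a 2nd probe gave 0.50 ± 0.37 and was called higher. Both membrane ring genes were called higher. Gp210, a single-pass pore membrane protein, gave 0.23 ± 0.14, with 0.18, 0.39 and 0.16 on the unswapped arrays, against 0.07 on the swap. It was not called without replicate 2 (0.15) or without replicate 3 (0.26). Ndc1, a multi-pass anchor of the scaffold, gave 0.21, 0.96 and 0.25, and 0.20 on the swap (0.47 ± 0.42), and a 2nd probe gave 0.38 ± 0.20. Ndc1 was called in 10 of 18 alternative settings. Without replicate 2 its ratio was 0.23 and called, while with the scanner's processed signals it was 0.30 and with a dye term 0.34, neither of them called.

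Of these genes, 4 shared 1 pattern, seen after their values were known. In Ndc1, Nup58, Nup358 and Nup44A, the ratio of replicate 2 exceeded the mean of replicates 1 and 3 by more than 0.3. This held for 4 of 33 members (12.1%) and for 346 of all 9739 genes (3.55%). In replicate 2 the larger shift was in the w1118 signal, which lay 0.34 to 0.64 log2 units below the mean of the other w1118 extracts. The null signal lay 0.06 to 0.11 above the mean of the other null extracts. These shifts of single channels were not set against those of all genes. For Ndc1 the w1118 signals were 12.66, 12.05 and 12.72 in replicates 1, 2 and 3, and the null signals 12.87, 13.01 and 12.97. Without replicate 2, Nup358 gave 0.50 and was still called.

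**Figure D2:**
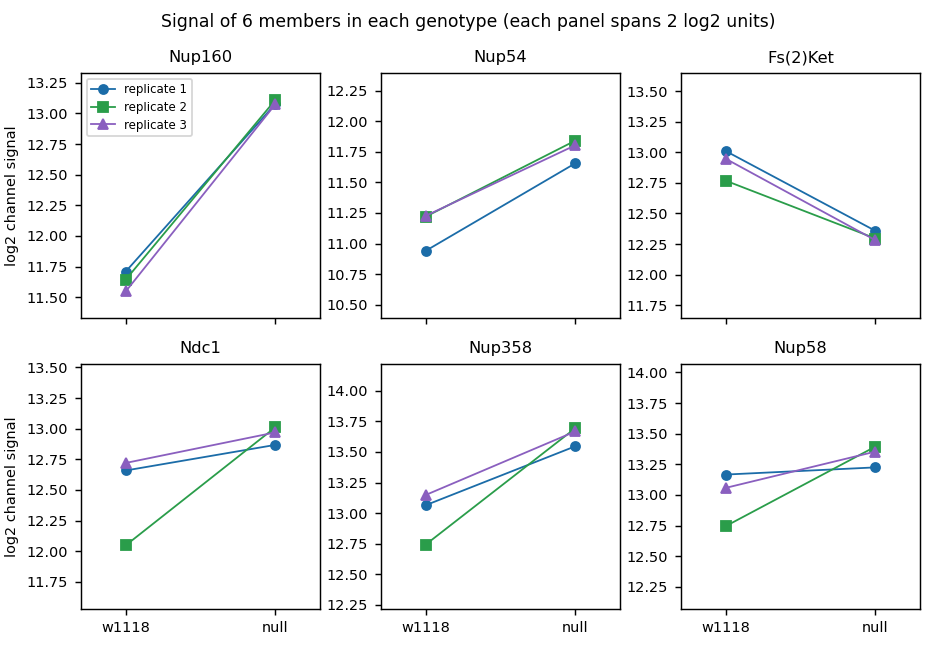
Log2 channel signal of 6 genes in w1118 and null extracts, 1 line per replicate pair, each panel spanning 2 log2 units. The 6 genes were picked by hand, and the genotypes do not overlap in any of them. Of all 33 genes, 13 had the null wholly above w1118 and 3 wholly below, against 26.0% and 24.3% of all genes tested. For Ndc1, Nup358 and Nup58 the w1118 signal of replicate 2 is the lowest of the 6 signals.

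Among the soluble factors, Ran itself was called higher. Its brightest probe gave 0.14, 0.32 and 0.32 on the unswapped arrays, against 0.38 on the swap, a 1.23-fold difference (0.30 ± 0.04). The 2 further Ran probes gave 0.10 and 0.16 and were not called, and with median centring the Ran ratio was 0.17 and not called. Importin beta, encoded by Fs(2)Ket, carries cargo bound to importin alpha through the pore and is a maternally supplied product. Its probe gave -0.60, -0.47 and -0.67, and -0.71 on the swap, so that its signal was 1.51-fold higher in w1118 (-0.60 ± 0.11). The null signals of 12.28 to 12.36 lay below the 12.77 to 13.01 of w1118, and a 2nd probe gave -0.47 ± 0.20 and was also called lower.

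The 3 importin alpha genes, whose products recognise the classical import signal, differed from one another. Pen, the importin alpha 2 gene, needed in the female germ line, gave -0.36, -0.27 and -0.17 on the unswapped arrays, against -0.51 on the swap (-0.29 ± 0.14). Of its 3 further probes, those at -0.47 and -0.40 were called lower and 1 at -0.06 was not. Kap-alpha1 gave -0.01 ± 0.05 and was not called, with further probes at 0.05 and -0.11. Kap-alpha3 was called higher at 0.14 ± 0.01, yet its further probes gave 0.23 (called higher), 0.09 (not called) and -0.33 (called lower). Its 4 probes are all named for transcript RA, so their opposite calls leave the gene with no single direction. Kap-alpha3 was also not called without replicate 2 (0.13) or without replicate 3 (0.14), and the mean of its probes was 0.03 and not called.

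Of the other import receptors, msk, the importin 7 gene, named for its part in bringing activated MAP kinase into nuclei, gave 0.02 ± 0.16 and was not called. It read -0.05, 0.20 and -0.08, and -0.08 on the swap. Tnpo, transportin, which imports RNA-binding proteins, was called lower at -0.18 ± 0.08, with -0.25, -0.28 and -0.15 on the unswapped arrays, against -0.01 on the swap. Its further probes gave -0.36 (called lower) and 0.12 (not called), and its call was lost without replicate 2 (-0.14) or without replicate 3 (-0.20). The export receptor gene emb, the fly Crm1, gave 0.05 ± 0.02 and was not called, with a 2nd probe at -0.00.

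In all, the 33 genes had 58 probes, every one of them above the filter. Of the 16 genes with several probes, 10 had probes of 1 sign and 6 had both signs. Among kept probes of the whole array 50.3% were called. Kap-alpha3 alone had probes called in opposite directions. The widest gap between probes of a gene was that of Nup160, at 1.35 log2 units, followed by Kap-alpha3 at 0.57.

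**Figure D3:**
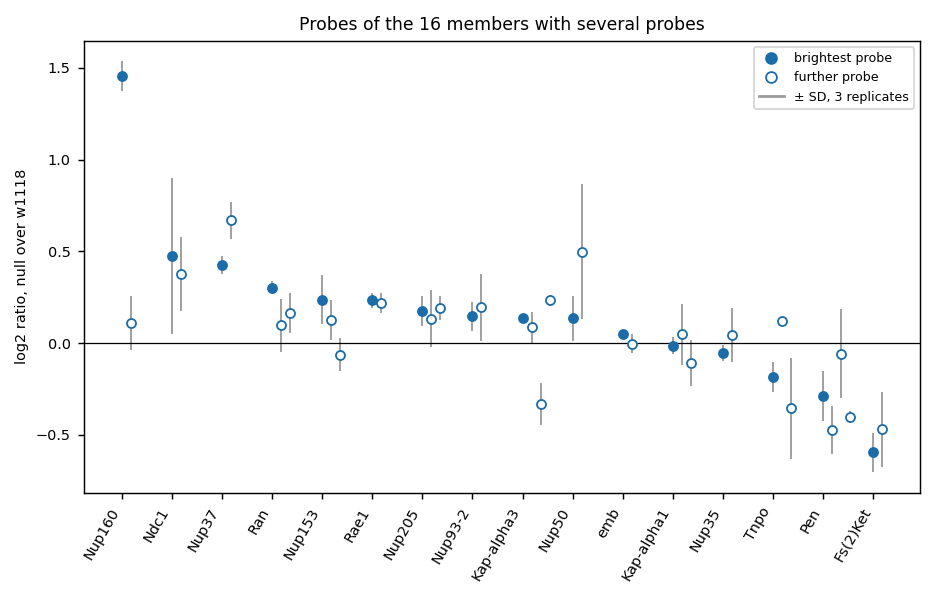
Log2 ratio of null over w1118 for each probe of the 16 genes with several probes (mean ± SD over 3 replicates), the brightest probe filled and further probes open. Probes of Rae1, Nup37, Ndc1 and Fs(2)Ket lie on 1 side of 0, while those of Nup160 span 0.11 to 1.46 and those of Kap-alpha3 span -0.33 to 0.23.

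The dye-swap array gave smaller ratios for the nucleoporins. The median over the 33 genes was 0.18, 0.20 and 0.18 on the unswapped arrays of replicates 1, 2 and 3, and 0.04 on the dye-swap array of replicate 1. For the nucleoporins alone these medians were 0.20, 0.30 and 0.25, against 0.11 on the swap. Of the 19 members called higher, 5 had a ratio below 0 on the swap (26.3%), against 328 of 2733 genes called higher on the whole array (12.0%). Those 5 were Nup93-2, Nup205, Nup58, Nup62 and Nup153, at -0.05 to -0.08 there. All 4 members called lower kept their sign. In 17 of 33 genes the ratio was above 0 on all 4 arrays, and in 4 it was below 0 on all 4, while for all genes these shares were 30.7% and 28.8%. Within slide 1, which holds both dye orientations, the members' median was 0.13, and within slide 2, which holds 1 orientation, it was 0.21. At 1 dye orientation, the unswapped array of slide 1 (0.18) lay beside those of slide 2 (0.20 and 0.18), and the swap array of slide 1 (0.04) lay below them. Only 1 array had its dyes exchanged, so dye orientation cannot be told apart from other traits of that array.

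**Figure D4:**
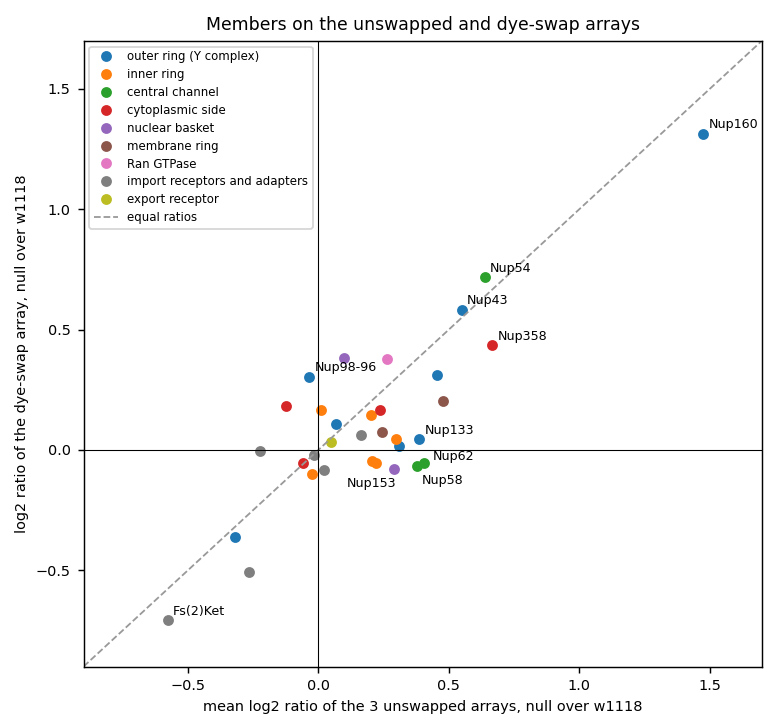
Mean log2 ratio of the 3 unswapped arrays (horizontal axis) against the log2 ratio of the dye-swap array (vertical axis), 1 point per gene, coloured by role, with a dashed line of equal ratios. Nup160, Nup54, Nup43 and Fs(2)Ket lie near the line, while Nup62, Nup58 and Nup153 lie below 0 on the swap alone.

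In 13 of 33 genes all 3 null signals lay above all 3 w1118 signals, and in 3 (Nup75, Fs(2)Ket and Pen) they all lay below. Over all genes these shares were 26.0% and 24.3%. The members lie on 5 chromosome arms, 9 of them on 2R, where 5 were called higher and 1 lower, against 578 and 573 of 1972 genes tested on that arm. On 3R, 8 of 10 members were called higher and none lower (647 and 601 of 2354 genes), and on X 4 of 5 and none (446 and 362 of 1614). On 2L, 2 of 6 were called higher and 2 lower (510 and 452 of 1702), and on 3L none of 3 higher and 1 lower (521 and 540 of 1922). Nup37 and Nup358 are immediate neighbours among protein-coding genes in the Release 6 annotation, with ratios of 0.43 and 0.65.

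Of 43 further genes of nuclear transport and the nuclear envelope, 41 were tested, since the listed names Nup36 and arts were not matched. Among these 41, 14 were called higher (34.1%, against 28.1% of all genes) and 6 lower (14.6% against 26.6%), with a median of 0.10. With arrays centred on their median in place of loess these counts were 7 and 6 (22.3% and 26.3% of all genes), and with a background offset of 0 they were 8 and 6 (27.1% and 24.9%). Of the 5 further pore components 2 were called higher: Elys, which seeds pores on chromatin (0.22 ± 0.17), and Sec13, a Y subunit shared with vesicle coats (0.16 ± 0.09). Both were below 0 on the swap, at -0.17 and -0.11. The nuclear basket protein Mgtor was not called by its brightest probe (0.08 ± 0.10), while its 2nd probe gave 1.05. Gle1 (0.10 ± 0.06) and Aladin (0.12 ± 0.09) were not called.

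Of 4 further genes of the Ran cycle, 3 were called higher, against 28.1% of all genes. RanGAP, which makes Ran hydrolyse GTP, gave 0.26 ± 0.02, with 0.21, 0.26 and 0.27 on the unswapped arrays, against 0.26 on the swap. Ntf-2, which returns Ran to the nucleus, gave 0.23 ± 0.18, but -0.15 on the swap. RanBP3, a cofactor of Crm1 export, gave 0.12 ± 0.01, while Rcc1, the nuclear exchange factor of Ran, gave 0.11 ± 0.04 and was not called.

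Among 9 further karyopherins, 2 were called lower and 1 higher, against 26.6% and 28.1% of all genes. Cse1, the exportin that returns importin alpha to the cytoplasm, gave -0.51, -0.74 and -0.75 on the unswapped arrays, against -0.62 on the swap (-0.68 ± 0.10), with a 2nd probe at -0.52. Ipo9, an import receptor for histones and ribosomal proteins, gave -0.22 ± 0.08, with a 2nd probe at 0.06. Ranbp21, the fly exportin 5, which exports microRNA precursors in mammals, was called higher at 0.31 ± 0.29 but read 0.08, 0.60 and 0.31 on the unswapped arrays, against -0.05 on the swap. Of 14 mRNA export genes, 5 were called higher and 1 lower, against 28.1% and 26.6% of all genes. Those with the largest ratios were PCID2 (0.31 ± 0.08), xmas (0.29 ± 0.04, 2nd probe 0.41), both of the TREX-2 complex, thoc6 of the THO complex (0.25 ± 0.11), and the RNA helicase gene Dbp80 (-0.32 ± 0.04, further probes -0.23 and 0.29). The export receptor gene sbr gave -0.05 ± 0.06 and was not called.

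**Figure D5:**
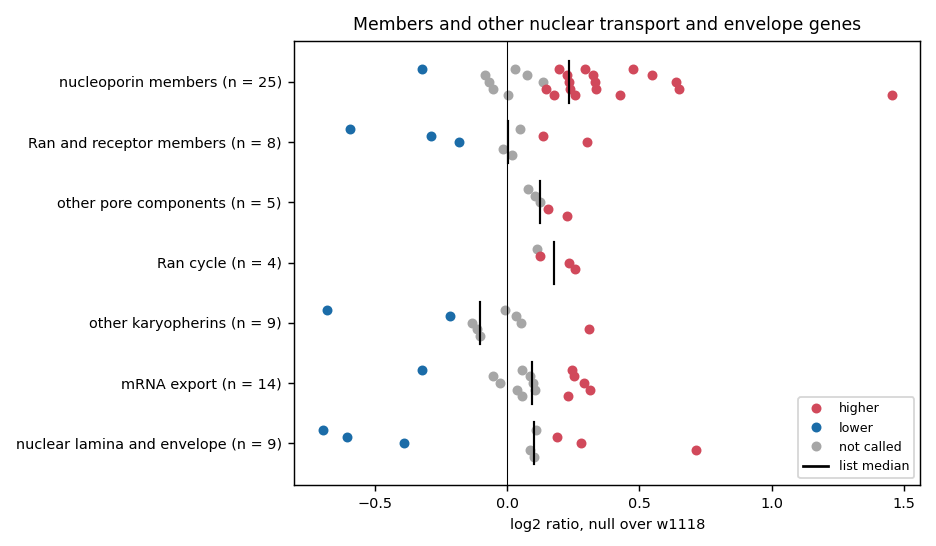
Log2 ratio of null over w1118 for single genes (points, coloured by call) in 7 groups, with the group median as a black line. The nucleoporins have a median of 0.23, Ran and its receptors 0.00, and the further karyopherins -0.10.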

How the data were processed

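Spots of the 4 arrays were quantified by the authors in Agilent Feature Extraction 10.1.1.1, per the file headers. The deposited intensity columns used were median spot and median local background brightness per channel, not normalized. The deposited processed intensity, which the scanner software had corrected for background and dye, served as an alternative, and the deposited log10 ratio was not used. The authors' deposited value table held log2 ratios with unstated direction and centring. Set against the processed signals, its columns followed null over w1118 with slopes of -1.00 and had medians of -0.14, 0.07, 0.13 and -0.04, so they were turned.

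In R 4.3.3, limma 3.58.1 applied normexp background correction (offset 50) and within-array loess, giving no weight to control and outlier spots. Spots of a probe were averaged. Through annotation IDs and accessions, 19482 of 32162 probes were matched to 13059 genes of RefSeq's Release 6 table, which served for names and gene order only. A probe was kept if well above background in 1 genotype in at least 2 replicates (19757 probes), and a gene was represented by its brightest kept probe. Channel signals were taken after quantile scaling of mean signals between arrays. Ratios were fitted with lmFit and eBayes over 3 replicates, the 2 arrays of replicate 1 averaged. The fit was tested on simulated data, in which each array had its own noise and dye bias followed signal alone. That test therefore does not cover an extract shared by the arrays of replicate 1, or dye bias of single probes. The cutoff of 0.3 for replicate 2 was set after seeing the data. All 33 members are named, and up to 4 called genes with the largest ratio and 1 sign in all replicates of each further list, with uncalled genes added as context. Members and lists were chosen with earlier results of these data known. Alternatives changed the signal columns, background, normalization, filter, probe summary, dye swap, slide, test and replicates. The number of arrays limits the precision.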

Additional observations from a re-analysis of the deposited data

Results flagged for a closer look

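Over the 4 arrays, 36 quantities were compared (each gene's ratio and 3 medians), and 5 had 1 array far from the other 3, where chance gives about 1 in 20. That rate is a rough guide and no test. The arrays are not independent, since 2 of them hold the extracts of replicate 1, and the medians are made from the same genes. The ratio of Nup133 was 0.043 on the dye-swap array against 0.37 to 0.41 elsewhere. The ratio of Nup62 was -0.055 on the dye-swap array against 0.38 to 0.44. The median of all 33 genes was 0.045 on that array against 0.18 to 0.20. In replicate 2 the ratio of Ndc1 was 0.96 against 0.20 to 0.25, and that of msk was 0.20 against -0.08 to -0.05.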

How the results depend on the processing

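Over 18 alternative settings no called gene changed sign, and 5 of the 23 called genes (Nup160, Nup75, Nup37, Nup43 and Nup54) were called in every one. These settings are not independent checks, and in some the sign could not change. The test without moderation and the test on unpaired channels reuse the main ratios. Changing the filter or keeping outlier spots left all 33 calls the same. The authors' values gave nearly the same ratios as the scanner's processed signals. With replicate 1 from its dye-swap array, the other replicates stayed unswapped. On that array itself, 5 of the 19 genes called higher lay below 0. Against 19 higher and 4 lower calls, the higher count was 11 with median centring (22.3% of all genes called higher), 7 with replicate 1 from its dye-swap array (17.9%), and 9 with no replicate block, that is, separate channels unpaired (18.7%). Without moderation it was 6, with 1 lower (10.9% and 10.5%). Leaving out a replicate gave 10 to 18 higher and 3 to 5 lower, fewest higher without replicate 3 (18.2%). Against 0.18, the median was 0.086 with median centring, 0.13 with a dye term over the 4 arrays and 0.13 within slide 1. For the further genes, against 14 higher calls (28.1% of all genes), there were 8 with offset 0 (27.1%) and 7 with median centring (22.3%). There were 7 with the swap alone (17.9%) and 22 with the unswapped array of replicate 1 (33.9%). Without moderation there were 5 (10.9%), with no replicate block 4 (18.7%), and without a replicate 5 to 16 (18.2% to 30.8%). The median of the further genes, 0.10, was 0.031 with median centring and 0.041 within slide 1. Causes were not tested. The pairing is that of the array itself. Over the 33 genes and 18 settings, 91 calls were lost and 8 gained.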

Other observations

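The nuclear lamina is the filament layer in which pores are seated. Of 9 genes listed for the lamina and the nuclear envelope, 3 were called higher and 3 lower in the null. Among all genes tested these shares were 28.1% and 26.6%. Lam, the B-type lamin gene active in most cells, gave 0.79, 0.83 and 0.83 on the unswapped arrays by its brightest probe, against 0.18 on the swap (0.72 ± 0.20). A 2nd Lam probe gave -0.96, opposite in sign. LamC, the A-type lamin gene of differentiating cells, gave -0.66, -0.84 and -0.60, and -0.64 on the swap (-0.70 ± 0.13). Ote, an inner membrane LEM-domain protein needed in germ line stem cells, gave -0.61 ± 0.05 and was below 0 on every array. Msp300, a nesprin that ties nuclei to the cytoskeleton in muscle, gave -0.39 ± 0.05, with 6 further probes at -0.27 to 0.01. LBR, the lamin B receptor gene, was called higher at 0.28 ± 0.13, though its w1118 signal was well above background on 1 of 4 arrays only and its null signal on 3.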
